A study of Physcomitrium patens with 21 samples.

Results

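Stems of the moss Physcomitrium patens collected 2 h after decapitation were compared with stems collected at 0 h, the control that the design names for decapitated groups. The libraries were chosen by their titles, 3 for each group, and were 6 of the 21 libraries of the series. The read pairs counted on each of 32926 gene models were compared, and 20269 models had enough counts to be tested. All plants were wild type (Gransden strain) gametophores, the leafy shoots of the moss, with stem as the labelled tissue. They came from 4-week-old colonies grown at 23 °C under 16 h light and 8 h dark, and each library pooled the RNA of 5 to 10 gametophores. Stems at 6, 12 and 24 h after decapitation served for the later course, and the 24 h label alone also carries a biotic stress tag. A separate auxin experiment on the same strain compared 30 min of 10 µM IAA (indole-3-acetic acid) with 30 min of mock solvent, and its labels give neither colony age nor pool size. Stems kept intact for 2 h were not analysed here, so the cut and the hour of collection cannot be told apart.

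A gametophore grows from a single apical cell at its tip. In this moss the tip is a source of the hormone auxin, which keeps side branches from forming near it, and removing the tip lets new branches form lower on the stem. Auxin acts within minutes by promoting the breakdown of Aux/IAA repressor proteins, so that genes held back by them are transcribed. Cutting a plant is also a wound, and plants answer wounds with fast transcription of signalling and defence genes.

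The files identify genes by model number only, with no names, and the RefSeq gene table held 0 of the 32926 numbers. The genes are therefore grouped by size of change, level, length, later course and response to auxin, and those printed are identified by number. For the same reason the stem label could not be checked against marker genes. The 6 libraries held 19803561 to 21289955 counted pairs. Across genes, log2 CPM (a gene's share of the counted pairs, scaled by TMM, the trimmed mean of M values) correlated at 0.991 to 0.994 between libraries of the same group and at 0.983 to 0.985 between 0 h and 2 h libraries. The biological coefficient of variation, the spread between replicates beyond counting error, was 0.0593 within the 2 h group and 0.0727 within the 0 h group. Counts of replicate libraries differed by more than sampling noise, with chi-square divided by its degrees of freedom between 3.76 and 8.08.

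Within 2 h of decapitation about as many genes rose as fell, and nearly all of these changes were small. Of the 20269 genes tested, 2494 (12.3%) rose from 0 h to 2 h and 2795 (13.8%) fell (edgeR quasi-likelihood test, p adjusted by Benjamini-Hochberg under 0.05). The median log2 change was 0.35 among the higher genes, -0.33 among the lower genes and 0.00481 over all genes tested. The 3 libraries of 2 h lay wholly above those of 0 h in 2440 of the 2494 higher genes and wholly below them in 2747 of the 2795 lower genes. Over all genes tested, 42.7% showed no overlap between the groups, in either direction. The calls rest on the same 0 h and 2 h libraries, so these counts describe the calls and do not add to them. With library size alone and no TMM scaling, 3827 genes were higher and 2068 lower, so the balance of the small changes depended on the scaling.

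Large changes were mainly increases. At 1.5-fold or more, 619 genes were higher and 463 lower. At 2-fold or more there were 242 higher (1.19%) and 119 lower (0.587%), at 4-fold 44 and 11, and at 8-fold 11 and 2. The call at 2-fold asks that the change differ from 0 and that its estimate be at least 2-fold. When the test itself asked for a change larger than 2-fold (edgeR's glmTreat), 63 genes were higher and 4 lower.

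**Figure D1:**
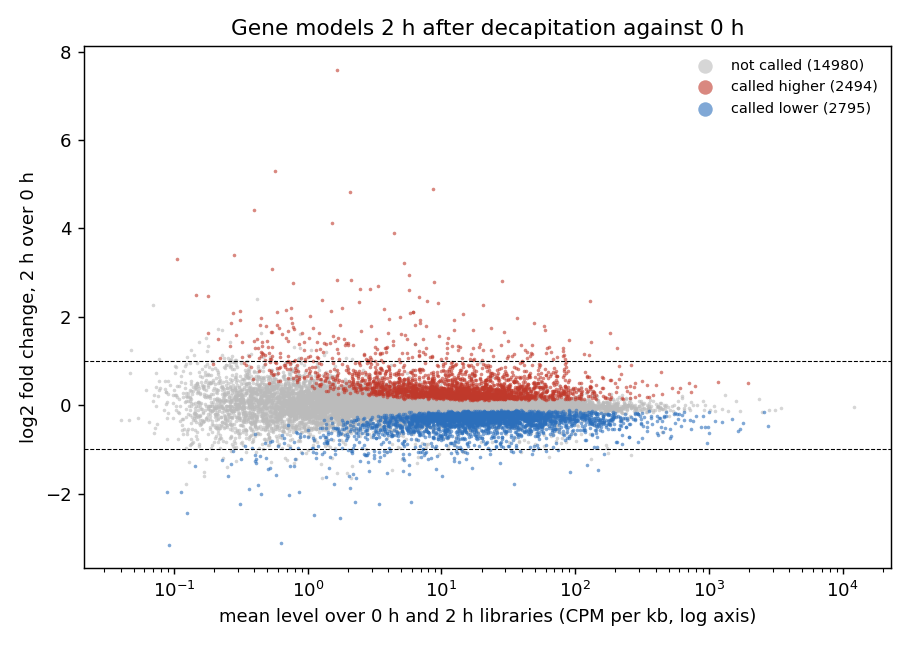
Log2 fold change of 20269 gene models at 2 h over 0 h (vertical axis) against the mean level over the 6 libraries in CPM per kb of model (log axis), 1 point per model, with dashed lines at 2-fold. The largest increases lie among models of low level, and the models called lower lie closer to 0 at high level.

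The genes with the largest rises started from very low levels. Per length of model, the median level at 0 h was 0.559 CPM per kb for the 44 genes that rose 4-fold or more, 1.95 for the 198 genes that rose 2-fold to 4-fold and 12.1 for the 2252 genes that rose less. It was 9.27 CPM per kb over all genes tested. Among lower genes the median was 4.21 CPM per kb for the 119 that fell 2-fold or more and 22.5 for the 2676 that fell less. At low counts only large changes pass the test, so the level and the size of the change in these classes are not independent.

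A set of 8 genes rose from at most 3 counted pairs in every 0 h library, with no overlap between the groups. Over the 3 libraries of a group, these genes had 1 to 6 pairs each at 0 h and 23 to 263 pairs at 2 h. Pp3c11_10660V3.1 reached the highest level of them. It had 0, 0 and 1 pairs in the 0 h libraries and 99, 77 and 87 pairs in the 2 h libraries. By summed and scaled pairs it rose 261-fold, and the exact 95% interval, for counting error alone, ran from 46.4 to 10337. The fitted log2 change was 7.59 ± 0.541 (SE; adjusted p = 4.62e-07 by edgeR). Among the decapitation libraries, only those of 2 h held enough counts for the gene to be tested. Its entry into the test thus depended on the level at 2 h, and the gene was then chosen for low 0 h counts. The signal was brief, with 13 pairs over the 3 libraries of 6 h, 0 over those of 12 h, where a count of 0 allows up to 3, and 1 over those of 24 h. In the auxin experiment the gene had 4 pairs in the mock libraries and 4 in the IAA libraries.

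Pp3c18_8490V3.1 showed the same sequence of high and low groups. It went from 0, 1 and 2 pairs at 0 h to 52, 46 and 34 pairs at 2 h, a ratio of 43.6 (exact 95% interval for counting error 14.6 to 214), and it was back at 3 pairs over the 6 h libraries. Its log2 change was 5.29 ± 0.460 (SE; adjusted p = 8.94e-07 by edgeR), and it too had enough counts to be tested through the 2 h libraries only. Not all 8 genes were brief. In summed pairs over the libraries of 0, 2, 6, 12 and 24 h, 1 of them ran through 2, 23, 167, 46 and 1, and another through 5, 30, 21, 108 and 61. These examples were picked after their values were seen.

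Of genes with at least 5 CPM, Pp3c12_21960V3.1 and Pp3c3_17840V3.1 rose most. Pp3c12_21960V3.1 had 2.06, 1.61 and 1.36 CPM at 0 h and 48.5, 46.7 and 54.1 CPM at 2 h, with a wide gap between the groups (log2 change 4.89 ± 0.155 SE; adjusted p = 3.94e-11 by edgeR). Its level in the auxin experiment stayed low, at 1.84 CPM ± 0.928 in mock and 0.982 CPM ± 0.312 in IAA (SD, n = 3 each), and that difference was not called (log2 change -0.92 ± 0.399 SE; adjusted p = 0.0989 by edgeR). Pp3c3_17840V3.1 went from 0.734, 0.439 and 0.291 CPM to 12.8, 12.7 and 16.2 CPM (log2 change 4.82 ± 0.312 SE; adjusted p = 4.24e-08 by edgeR). In the auxin experiment it had 0, 0 and 1 pairs in mock and 2, 5 and 6 in IAA, too few to be tested. Both genes had their highest group mean at 2 h among the 7 groups.

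By absolute level, the largest gains belonged to abundant transcripts that changed by under 2-fold. Pp3c7_6560V3.1 stood at 1988, 1945 and 1993 CPM at 0 h and at 2777, 2791 and 2839 CPM at 2 h, a 1.42-fold rise (log2 change 0.50 ± 0.0626 SE; adjusted p = 2.85e-05 by edgeR). The spread within each group was far smaller than the gap between them. Unlike the brief genes above, it went on to 5314 CPM ± 402 at 6 h and 4989 CPM ± 266 at 12 h, and was at 2039 CPM ± 173 at 24 h (SD, n = 3 each). Pp3c17_6090V3.1 went from 1277, 1361 and 1253 CPM to 1954, 1847 and 1834 CPM, a 1.45-fold rise (log2 change 0.53 ± 0.0538 SE; adjusted p = 3.89e-06 by edgeR). Its level at 6 h, 2021 CPM ± 137 (SD, n = 3), was not called different from 2 h (adjusted p = 0.165 by edgeR). In IAA against mock, Pp3c7_6560V3.1 was lower (log2 change -0.31 ± 0.0944 SE; adjusted p = 0.0265 by edgeR), and Pp3c17_6090V3.1 was not called, with an estimate above 0 (log2 change 0.19 ± 0.0996 SE; adjusted p = 0.171 by edgeR).

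The falls included some of the most abundant transcripts of the stem. Pp3c9_5310V3.1 dropped from 4399, 4380 and 4620 CPM at 0 h to 3095, 3017 and 3102 CPM at 2 h, with a log2 difference of -0.54 ± 0.0449 (SE; adjusted p = 5.72e-07 by edgeR). Pp3c21_9980V3.1 dropped from 3951, 3863 and 4325 CPM to 2657, 2722 and 2686 CPM, with a log2 difference of -0.59 ± 0.0545 (SE; adjusted p = 1.55e-06 by edgeR). In neither gene did the groups overlap, which the choice of named genes required. Both were lower still at 6 h, at 1654 CPM ± 58.0 and 1423 CPM ± 51.4, and both were above the 0 h mean at 24 h, at 5975 CPM ± 330 and 5215 CPM ± 339 (SD, n = 3 each). IAA raised both against mock, by log2 0.67 ± 0.102 and 0.74 ± 0.0960 (SE; adjusted p = 0.000952 and 0.000354 by edgeR).

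Among genes with at least 5 CPM, Pp3c3_37540V3.1 and Pp3c10_17490V3.1 fell most, and only the first did so evenly over the libraries. Pp3c3_37540V3.1 had 41.3, 48.9 and 42.7 CPM at 0 h and 8.16, 12.3 and 8.73 CPM at 2 h (log2 change -2.19 ± 0.124 SE; adjusted p = 1.04e-08 by edgeR). In the auxin experiment it stood at 4.70, 7.14 and 5.26 CPM in mock and at 37.9, 32.2 and 32.2 CPM in IAA, which differed by log2 2.58 ± 0.145 (SE; adjusted p = 3.20e-06 by edgeR). Stems at 2 h lay nearer to the mock level and stems at 0 h nearer to the IAA level, across separately scaled experiments. Pp3c10_17490V3.1 had 30.9, 7.07 and 3.73 CPM at 0 h and 2.45, 2.84 and 3.49 CPM at 2 h, so that replicate 1 of 0 h carried most of its fall. Without that library the log2 change was -0.88 instead of -2.24, and the edgeR adjusted p rose from 0.0255 to 0.292. Leaving out replicate 1, 2 or 3 of 2 h also ended the call, at edgeR adjusted p of 0.0856, 0.0717 and 0.0585. In IAA against mock, Pp3c10_17490V3.1 was not called (log2 change 0.063 ± 0.244 SE, adjusted p = 0.857 by edgeR).

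In the other direction, 2 genes fell to at most 3 pairs in every 2 h library without overlap. How many tested genes had so few pairs in either group is not given here. The 2 genes and the 8 that rose are therefore not a comparison of directions. Pp3c10_9670V3.1 had 8, 8 and 22 pairs at 0 h and 3, 1 and 0 at 2 h, 9.58-fold lower by summed pairs, with 3.45 to 36.97 as the exact 95% interval for counting error (log2 change -3.15 ± 0.903 SE; adjusted p = 0.0176 by edgeR). The call ended without replicate 2 or 3 of 2 h or replicate 3 of 0 h, at edgeR adjusted p of 0.0550, 0.0667 and 0.0957. With the 6 libraries of 0 h and 2 h alone, Pp3c10_9670V3.1 had too few counts to be tested. At 24 h it was above 0 h (log2 change 1.79 ± 0.473 SE, adjusted p = 0.00852 by edgeR). IAA raised it against mock (log2 change 3.82 ± 0.640 SE, adjusted p = 0.00153 by edgeR). Pp3c23_16280V3.1 had 9, 12 and 15 pairs at 0 h and 3 in each library of 2 h, 4.03-fold lower with bounds of 1.91 and 9.53 (log2 change -1.97 ± 0.457 SE; adjusted p = 0.00467 by edgeR).

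**Figure D2:**
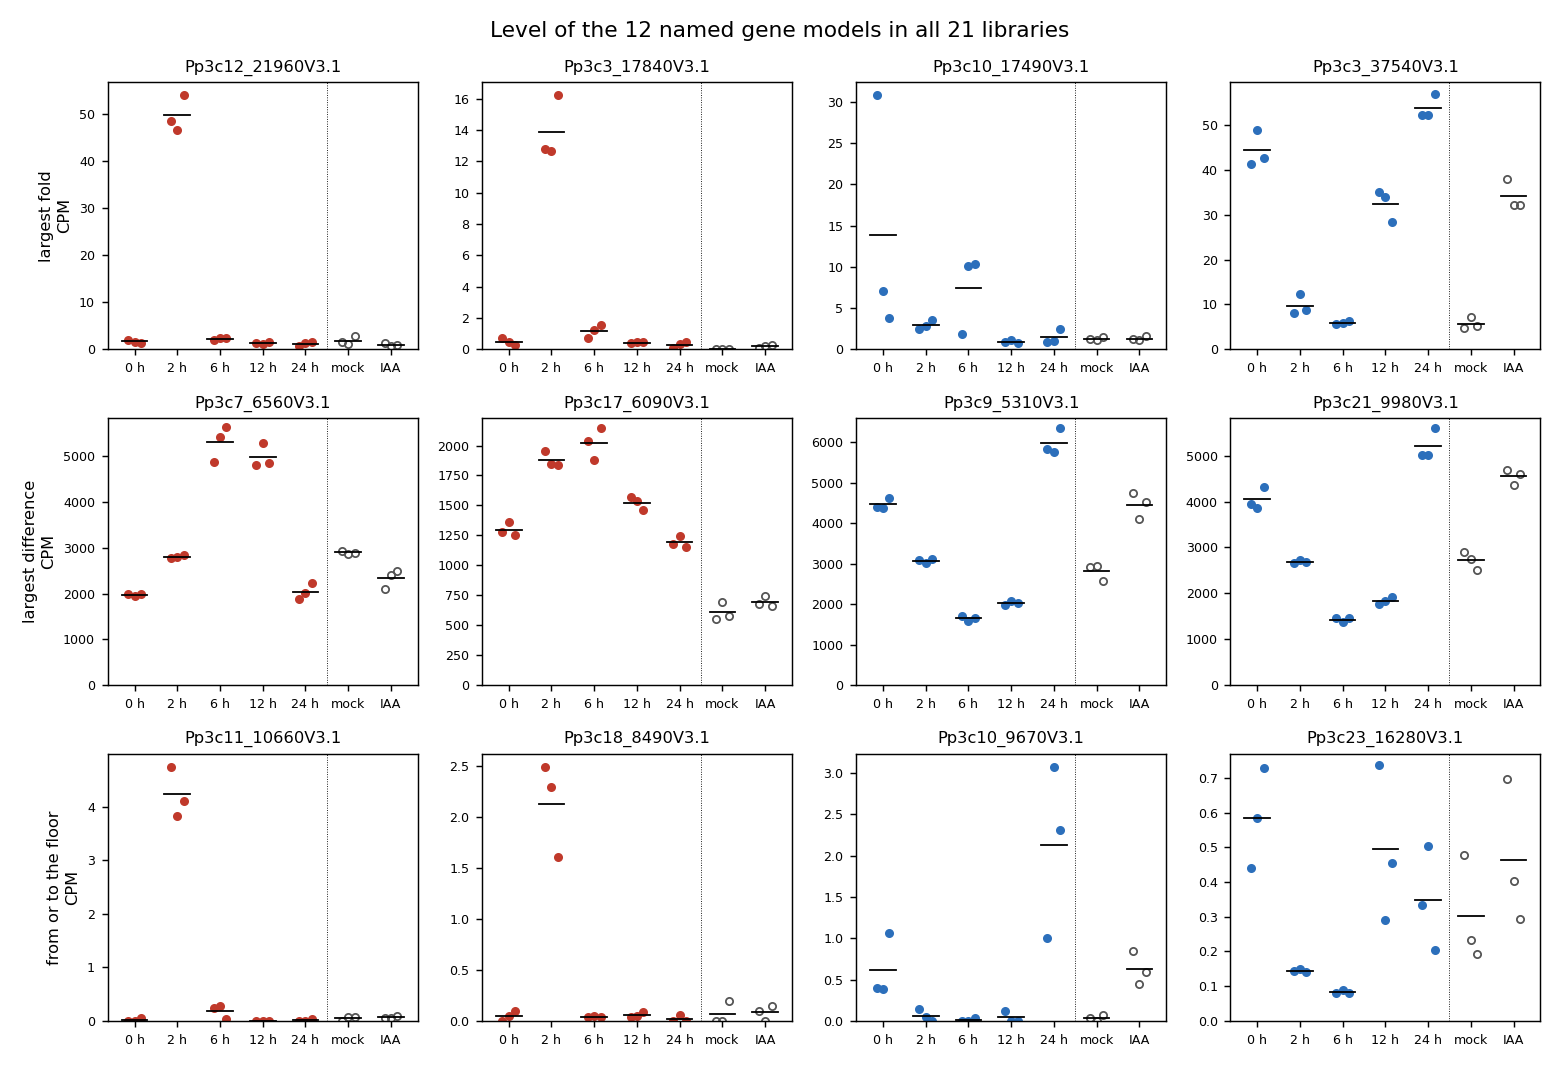
CPM (linear axes from 0) of the 12 named gene models in all 21 libraries, 1 point per library with the group mean as a line, filled for the decapitation series and open for the auxin experiment, which was scaled separately. Rows hold the largest folds, the largest differences in CPM, and the genes that start or end at 3 pairs or fewer per library. The first 2 panels of the top and bottom rows are high at 2 h alone, and Pp3c9_5310V3.1 and Pp3c21_9980V3.1 are lowest at 6 h.

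Abundant genes fell more often than they rose, and genes of low level rose more often than they fell. Genes were split into 5 quintiles by their mean level per length over the 6 libraries. In the lowest quintile, up to 2.20 CPM per kb, 242 genes (5.97%) were called higher and 132 (3.26%) lower. In the highest quintile, from 26.6 CPM per kb, 640 (15.8%) were higher and 1090 (26.9%) lower. The lowest quintile held 108 of the 242 genes that rose 2-fold or more and 50 of the 119 that fell as much, while the highest held 39 and 13. With RLE size factors the highest quintile had 624 higher and 1114 lower genes. Without scaling it had 958 higher and 869 lower, so the excess of falls among abundant genes turned with the scaling, while the lowest quintile kept more higher than lower genes, 322 and 103.

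Length separated the classes less than level did. The median model length was 2018 bases for genes that rose 2-fold or more, 1875 bases for those that fell 2-fold or more and 2247 bases over all genes tested. In the quintile of shortest models, up to 1415 bases, 9.97% were called higher and 8.78% lower. In the quintile of longest models, from 3417 bases, 11.03% were higher and 16.2% lower. Without scaling the longest models had 698 higher and 464 lower genes, so this direction also turned. Longer models collect more pairs at the same level, and whether this bears on the calls was not tested.

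**Figure D3:**
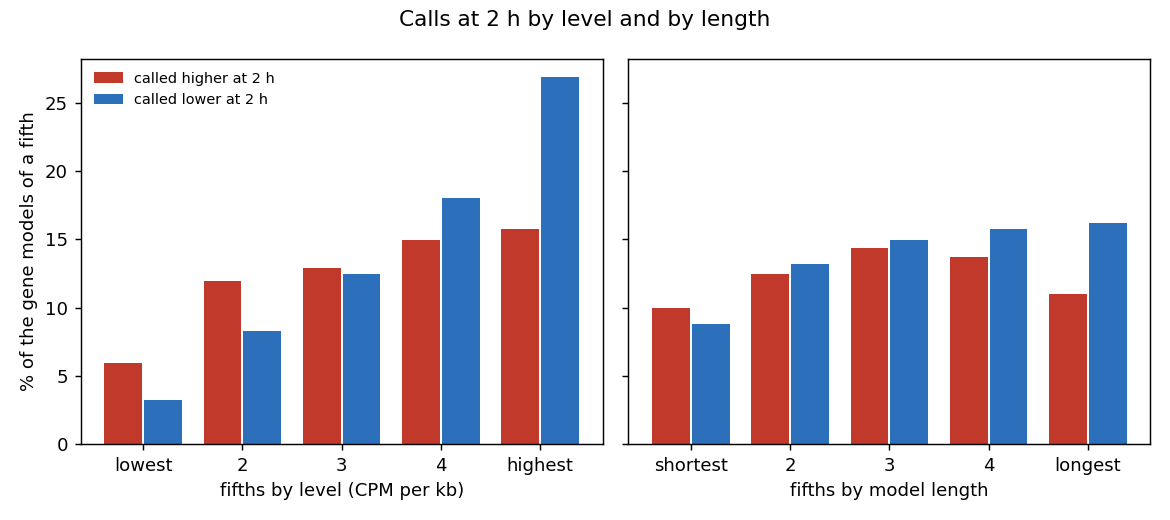
Percentage of the gene models of each quintile that were called higher (red) or lower (blue) at 2 h than at 0 h, by level in CPM per kb (left) and by model length (right), about 4054 models per quintile. Lower calls rise from 3.26% in the lowest to 26.9% in the highest quintile of level, and higher calls from 5.97% to 15.8%.

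The called genes together made up a large part of the stem's messenger RNA, and their balance shifted within 2 h. The genes called lower took 30.7%, 31.2% and 31.6% of the counted pairs in the 0 h libraries and 24.9%, 25.2% and 25.1% in the 2 h libraries. The genes called higher took 11.4%, 11.6% and 11.5% at 0 h and 16.1% in each library at 2 h. These genes were chosen by this difference, so the shares are a description of its size. The 44 genes that rose 4-fold or more made up 0.0233% ± 0.000518 of the pairs at 0 h and 0.134% ± 0.00249 at 2 h (SD, n = 3 each), a small part of the library in both groups. In bulk stems, a smaller share of a transcript can come from fewer cells that hold it or from less of it per cell, and these cannot be told apart.

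The genes with the largest rises at 2 h had a median below their start by 24 h. The 44 genes that rose 4-fold or more had a median log2 change against 0 h of 2.48, 1.51, 0.16 and -0.70 at 2, 6, 12 and 24 h in turn. For the 198 genes that rose 2-fold to 4-fold the medians were 1.29, 1.08, 0.71 and 0.04. Over all genes tested they lay between -0.01 and 0.01. The 4 comparisons share the 0 h libraries, and the classes were chosen on the 0 h and 2 h libraries. The later medians therefore reuse 0 h values that the choice had used. The mean level was highest at 2 h in 26 of the 44 genes (59.1%), at 6 h in 14 and at 12 h in 4, and it was lowest at 24 h in 30 (68.2%) and at 0 h in 11. Over all genes tested, the mean was highest at 2 h in 12.4% and lowest at 24 h in 25.4%. By the choice, none of the 44 genes was highest at 0 h or lowest at 2 h. Of all genes tested, 19.3% were highest at 0 h and 12.2% lowest at 2 h, so their shares are not a like baseline.

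Tested against 2 h, the rises split into those that were already receding at 6 h and those that went on. Of the 242 genes that rose 2-fold or more, 93 (38.4%) were lower at 6 h than at 2 h, 77 (31.8%) were higher and 72 were not called. Over all genes tested, 13.2% were lower and 12.8% higher at 6 h than at 2 h. At 24 h 206 of the 242 (85.1%) were lower than at 2 h and 1 was higher, against 21.7% and 22.4% of all genes. The choice on the 0 h and 2 h libraries, of which these comparisons also use those of 2 h, can add to the counts of receding genes.

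The median of the genes that fell 2-fold or more reached its lowest value at 12 h. Their median log2 change against 0 h was -1.20, -1.64, -2.19 and -0.93 at 2, 6, 12 and 24 h in turn. At 6 h, 33 of the 119 (27.7%) were called lower than at 2 h and 7 higher, where 13.2% and 12.8% of all genes tested were. At 12 h 58 (48.7%) were lower and 17 higher, where 22.9% and 20.1% of all genes tested were. At 24 h, 33 (27.7%) were higher than at 2 h, near the 22.4% over all genes. A further 5 were lower, where 21.7% of all genes were, and 81 were not called. Without replicate 2 of 2 h, 119 genes fell 2-fold or more, and 53 of these were higher at 24 h than at 2 h. Without replicate 1 or 3 of 2 h the counts were 36 of 85 and 36 of 102. Without replicate 1, 2 or 3 of 0 h they were 36 of 84, 36 of 108 and 31 of 123. The nearness to the share over all genes therefore depended on which libraries were used. The lowest mean came at 12 h in 70 of the 119 genes (58.8%), against 23.8% of all genes tested. By the choice, none of the 119 had its lowest mean at 0 h, while 18.8% of all genes tested did. The share over all genes is therefore not a like baseline. The genes were chosen on the 0 h and 2 h libraries, which the comparisons of this paragraph also use.

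Most genes with smaller changes at 2 h were called back toward their start at 24 h, in either direction. Of the 2252 genes that rose by under 2-fold, 1522 (67.6%) were lower at 24 h than at 2 h, and of the 2676 genes that fell by under 2-fold, 1800 (67.3%) were higher. Over all genes tested, 21.7% were lower and 22.4% higher, and the choice on the 0 h and 2 h libraries can add to these counts. Their medians against 0 h at 24 h were 0.03 and 0.01. At 6 h, however, 741 (32.9%) of the small rises were higher than at 2 h, where 12.8% of all genes tested were, and 753 (28.1%) of the small falls were lower, where 13.2% of all genes were.

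**Figure D4:**
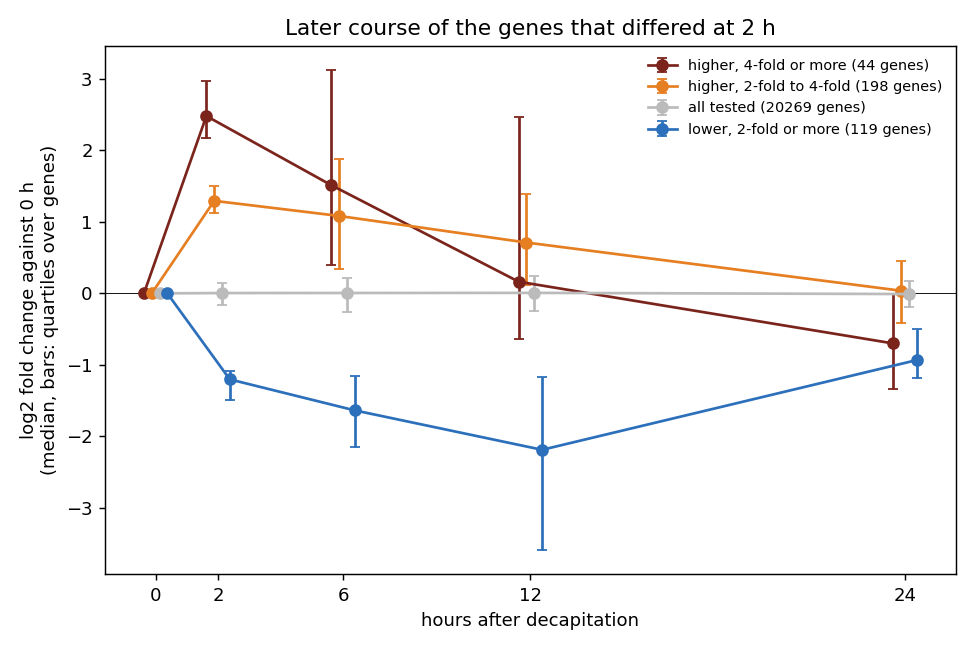
Median log2 fold change against 0 h (vertical axis; bars span the quartiles over genes, not replicate error) at 2, 6, 12 and 24 h after decapitation for genes grouped by their change at 2 h. The genes that rose 4-fold or more go from a median of 2.48 at 2 h to -0.70 at 24 h, and the genes that fell 2-fold or more reach -2.19 at 12 h.

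Genes that fell after decapitation were mostly genes that IAA raised. The auxin experiment used other libraries, which took no part in the choice at 2 h, and 19766 genes were tested in both. The classes differed in median level at 0 h, with 4.21 CPM per kb for falls of 2-fold or more and 22.5 for smaller falls. The median was 9.27 over all genes tested, and the shares over all genes were not matched for level. Among the genes tested in both, IAA raised 21.4% and lowered 18.5% against mock. Of the 119 genes that fell 2-fold or more, 102 were tested in IAA, and 73 of them (71.6%) were higher, 3 (2.94%) lower and 26 not called. At 2-fold or more in IAA, 54 (52.9%) were higher, against 4.67% of all genes tested in both. Their median log2 change in IAA was 1.12. The smaller falls were similar in direction, with 1592 of 2673 (59.6%) higher in IAA at a median of 0.32.

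Genes that rose after decapitation were more often lowered than raised by IAA, with more exceptions than among the genes that fell. Of the 242 genes that rose 2-fold or more, 196 were tested in IAA, and 86 (43.9%) were lower, 31 (15.8%) higher and 79 not called. Over all genes tested in both, 18.5% were lower and 21.4% higher, so for calls of any size the share raised by IAA was below that over all genes. At 2-fold or more, 49 (25%) were lower in IAA and 19 (9.69%) higher, both above the 1.36% and 4.67% of all genes. The remaining 46 genes had too few counts in the auxin experiment, among them 19 of the 44 that rose 4-fold or more. Of the 25 such genes tested in IAA, 12 (48%) were lower and 5 (20%) higher. Among the 2248 smaller rises tested in IAA, 1086 (48.3%) were lower and 236 (10.5%) higher, against the same 18.5% and 21.4%.

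The same overlaps can be read as shares of the genes that responded to IAA. Genes called lower at 2 h made up 39.4% of the 4226 genes that IAA raised and 14.04% of all genes tested in both. Genes called higher made up 32.0% of the 3660 that IAA lowered and 12.4% of all genes tested in both. The genes that fell 2-fold or more were 5.84% of the 924 genes that IAA raised 2-fold or more, against 0.516% of all genes tested in both. Those that rose as much were 18.2% of the 269 that IAA lowered as much, against 0.992%. The share of genes that fell 2-fold or more and were higher in IAA stayed between 66.7% and 75.2% when single libraries of 0 h or 2 h were left out. For the genes that rose 2-fold or more and were lower in IAA it stayed between 41.1% and 44.8%.

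For the genes called lower, the mock libraries held shares near those of 2 h and the IAA libraries shares near those of 0 h. The genes called lower at 2 h took 26.3%, 25.8% and 25.2% of the counted pairs in the mock libraries and 31.7%, 30.4% and 31.0% in the IAA libraries, beside 30.7% to 31.6% at 0 h and 24.9% to 25.2% at 2 h. The genes called higher took 13.7% to 14.1% in mock, between the 0 h and 2 h libraries, and 10.7% to 11.2% in IAA. The genes that rose 2-fold or more took a mean of 0.637% in mock, nearer to 0.425% at 0 h than to 1.16% at 2 h. The experiments differed in growth protocol as labelled, and their libraries were not tested against each other. At 24 h both classes stood near their shares at 0 h, at 32.8% ± 0.324 and 11.4% ± 0.110 of the pairs (SD, n = 3 each).

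**Figure D5:**
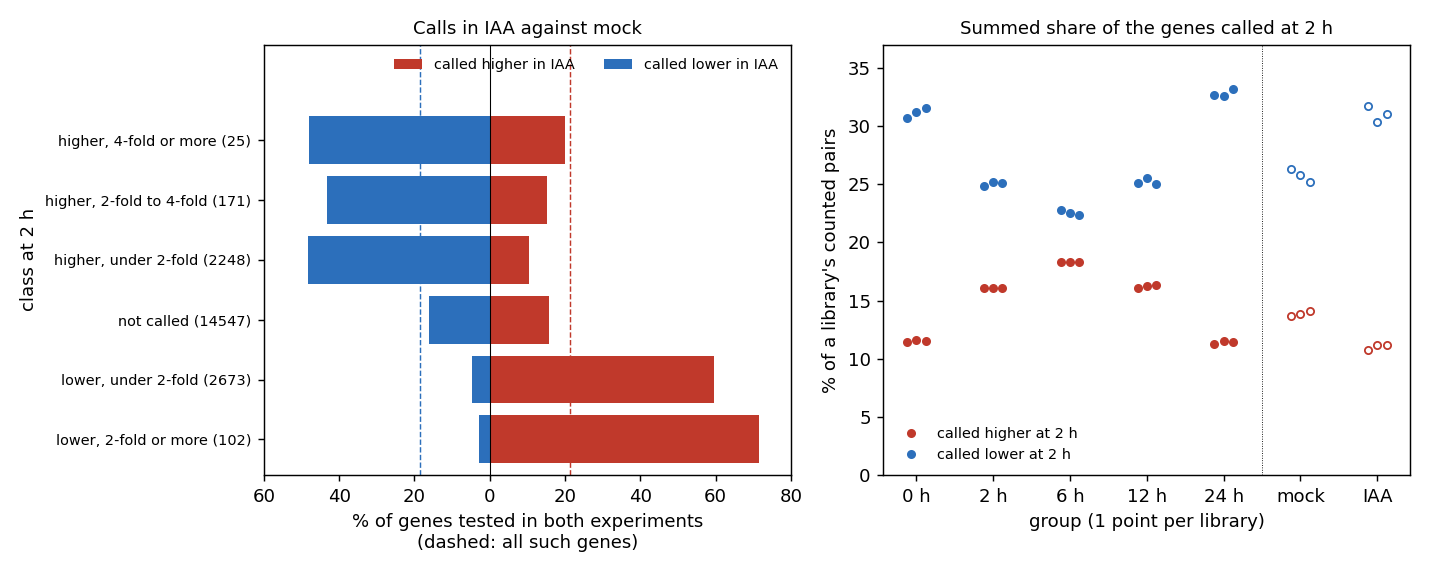
Left, percentage of the genes of each 2 h class (number tested in both experiments in brackets) called higher (right of 0) or lower (left of 0) in IAA than in mock, with dashed lines at 21.4% and 18.5% for all genes tested in both. Right, percentage of a library's counted pairs taken by all genes called higher or lower at 2 h, 1 point per library, filled for the decapitation series and open for mock and IAA; the genes called lower hold 24.9% to 25.2% at 2 h and 25.2% to 26.3% in mock.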

How the data were processed

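Polyadenylated RNA, from 4 µg of total RNA per library, was sequenced as stranded, paired-end libraries, per the labels' protocols. The submitters' processing notes name Bowtie2 as a tool. The genome build and annotation are not given in the sources used here. The deposited values are whole-number counts of read pairs per gene model; per the file headers, single mates were treated as unmapped, multi-hit reads were removed, and insert size was not limited. Models with near-identical copies, and overlapping or antisense models, are therefore uncertain. A second deposited column counts single reads, and the deposited model length was used for levels per kb (other values). The RefSeq gene table (27567 genes) matched 0 identifiers, so the planned gene lists were not run and no sequence was taken.

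The tests used edgeR 4.0.16 under R 4.3.3, with filterByExpr, TMM scaling, and the quasi-likelihood F test with group as the sole term over the 15 decapitation libraries, or the 6 auxin libraries in a separate fit. SE was taken as |log2 change|/√F. P was adjusted by Benjamini-Hochberg over all genes tested. Counting intervals are exact binomial (95%). P-values measure the spread between libraries called biological replicates in the design, with no source that names separate colonies. Named genes are the 2 called genes per direction, without overlap between groups, with the largest fold (at least 5 CPM in the higher group), the largest CPM difference, or the highest level among genes with at most 3 pairs per library in the lower group. Classes, rule and tests were chosen with earlier results of these data known. Alternatives were RLE scaling, no scaling, other filters, DESeq2 1.42.0, glmTreat, single reads, 6 libraries alone, a replicate block and leaving out single libraries.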

Additional observations from a re-analysis of the deposited data

Results flagged for a closer look

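For 8 of the 12 named genes the change from 0 h to 2 h differed from the change from 0 h to 6 h, which is the comparison of 6 h with 2 h in the same fit. The log2 difference was -4.47 for Pp3c12_21960V3.1, -3.59 for Pp3c3_17840V3.1, -4.51 for Pp3c11_10660V3.1 and -5.49 for Pp3c18_8490V3.1, all high at 2 h. It was 0.92 for Pp3c7_6560V3.1, which rose further. It was -0.71 for Pp3c3_37540V3.1, -0.89 for Pp3c9_5310V3.1 and -0.92 for Pp3c21_9980V3.1, which fell further. For the genes other than Pp3c11_10660V3.1 and Pp3c18_8490V3.1, adjusted p in edgeR lay between 3.78e-11 and 0.00209. Pp3c11_10660V3.1 and Pp3c18_8490V3.1 had enough counts to be tested through the 2 h libraries only. A lower level at 6 h was thus part of their entry into the test, and their p-values cannot decide whether they fell. All 8 genes were chosen for their change at 2 h, and both comparisons share the 2 h libraries.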

How the results depend on the processing

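Counts of called genes stayed within 1.5 times the reported number under RLE scaling, both filters, DESeq2, the 6 libraries alone, single reads and the replicate block. Without scaling, an alternative chosen after seeing the data, 3827 genes were higher instead of 2494. With glmTreat against 2-fold, 63 genes were higher and 4 lower instead of 242 and 119. Leaving out single libraries of 0 h or 2 h gave 1854 to 2163 genes higher and 2158 to 2486 lower, 228 to 244 higher 2-fold or more and 84 to 123 lower. Of the genes that fell 2-fold or more, 31 to 53 were then higher at 24 h than at 2 h, instead of 33; the cause was not tested.

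Libraries of 0 h and 2 h with the same replicate number correlated in their deviations at 0.000580, 0.125 and -0.00225 for replicates 1, 2 and 3. Replicate 2 of 0 h correlated best with its own number, and replicates 1 and 3 did not. Pairing by number was thus not shown, and so few libraries cannot exclude it. With the replicate block, 2591 genes were higher and 2898 lower, 242 and 121 of them 2-fold or more, and Pp3c10_17490V3.1 was at an edgeR adjusted p of 0.0502. Named genes kept their direction under the alternatives that tested them, and the calls of Pp3c10_17490V3.1 and Pp3c10_9670V3.1 were lost without single libraries. DESeq2 gave no adjusted p for Pp3c23_16280V3.1, which was also filtered out with the 6 libraries alone and with the filter of 1 CPM; Pp3c10_9670V3.1 was filtered out with the 6 libraries alone. Depth limits the genes at 3 pairs or fewer.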

Other observations

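Genes with neighbouring numbers tended to differ in the same direction. The tested genes were ordered by the number in their identifier within each prefix; the files give no coordinates. Beside the 242 genes that rose 2-fold or more stood 483 neighbours, of which 118 (24.4%) were called higher, against 12.3% of all genes tested, and 28 (5.80%) had also risen 2-fold or more, against 1.19%. Beside the 119 genes that fell 2-fold or more stood 236 neighbours, of which 50 (21.2%) were called lower, against 13.8%, and 8 (3.39%) had also fallen 2-fold or more, against 0.587%. Reads shared by overlapping models or similar copies were not separated here, and their part in these shares was not tested.

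Replicate 1 of 0 h held the highest 0 h level in 59 of the 119 genes that fell 2-fold or more (49.6%), against 36.5% of all genes tested, and it was at least 2-fold above both other 0 h libraries in 9 of them, against 138 of the 20269 genes tested. Replicate 2 of 2 h held the highest 2 h level in 58 of the 119 (48.7%), against 34.9% of all genes tested, and was at least 2-fold above both other 2 h libraries in 8, against 51 of all genes tested. Without replicate 1 of 0 h, 84 genes were called lower 2-fold or more, and 67.1% of those tested in IAA were higher there.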
